A study of Mus musculus with 12 samples.

Results

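Transcript levels of 7 genes of the MS4A family of membrane proteins, namely Ms4a1, Ms4a4b, Ms4a4c, Ms4a4d, Ms4a6b, Ms4a6c and Ms4a6d, were examined in lymphocytes of the mouse spleen, resting B cells on the one side and naive CD4+ T cells on the other. They are 7 of the 41128 genes in the deposited table. The genes were chosen from a comparison of B and T cells in these same libraries, so their levels in the cell types are given here as a description, with no test.

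MS4A proteins cross the membrane several times and sit mostly at the cell surface, where they associate with receptors and modulate signalling and calcium entry. The best known member is Ms4a1, which encodes CD20, the surface marker of mature B cells and the target of therapeutic antibodies. Ms4a4b and Ms4a6b are known in mouse T cells, where their products associate with costimulatory receptors. Transcripts of Ms4a4c, Ms4a6c and Ms4a6d are also known from monocytes and macrophages.

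The 12 libraries came from the spleens of mice of the strain C57BL/6J at 6 to 8 weeks of age and form 4 groups of 3, namely female and male resting B cells lacking CD43, and female and male naive T cells. The T cells were enriched on magnetic columns and then sorted as CD4+, CD62L high, CD44 low and CD25-. Each library stands for a pool of mice, so the spread given below is a spread between pools, and libraries carry the numbers 1 to 3 (B cells) or 4 to 6 (T cells) in either sex. All groups share the strain, and the labels name no treatment and no engineered allele. Levels are in adjusted TPM, a name that by common usage stands for a share of transcripts corrected for their length. How the values were adjusted is not given in the sources used here, so comparisons of level between genes take the name at its word.

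The cell types matched their markers. The summed level of 4 B cell markers (Cd79a, Cd79b, Pax5 and Cr2) was 1686 to 2020.2 in the B cell libraries and 1.01 to 4.34 in the T cell libraries. That of 5 T cell markers (Cd3d, Cd3e, Cd4, Lck and Tcf7) was 1017 to 1194 in T cells and 9.76 to 14.1 in B cells, where Cd3e and Cd4 were under 0.1 in every library. Both T cell libraries numbered 6 stood apart from the other 4. Their summed level of regulatory or activated T cell markers (Foxp3, Il2ra, Ctla4 and Cd44) was 30.7 in the female and 23.2 in the male library. In the other 4 it was 9.89 to 13.9. Some values that rest on the libraries numbered 6 are given with and without them. The library totals ran from 561020 to 1453940, and the number of genes at a level of at least 1 from 11122 to 11543.

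Of the 7 genes, 2 were higher in B cells (Ms4a1 and Ms4a4c) and 4 in T cells (Ms4a4b, Ms4a6b, Ms4a4d and Ms4a6d) without overlap between the 6 libraries of each cell type, and Ms4a6c overlapped. Among all 12520 genes with a level of at least 1 in at least 3 libraries, 53.9% did not overlap (24.2% with the B cell libraries on top and 29.7% with the T cell libraries on top). All 7 genes passed this filter on low values, Ms4a1 through the B cell libraries and Ms4a4d and Ms4a6d through the T cell libraries alone. The median difference, B minus T in log2(level + 1), was -0.75 over the 7 genes, which is the value of Ms4a4d and was -1.91 for that gene with a pseudocount of 0.1, and -0.09 over the 12520. Since the genes were chosen for such differences, nothing is read from these counts.

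**Figure D1:**
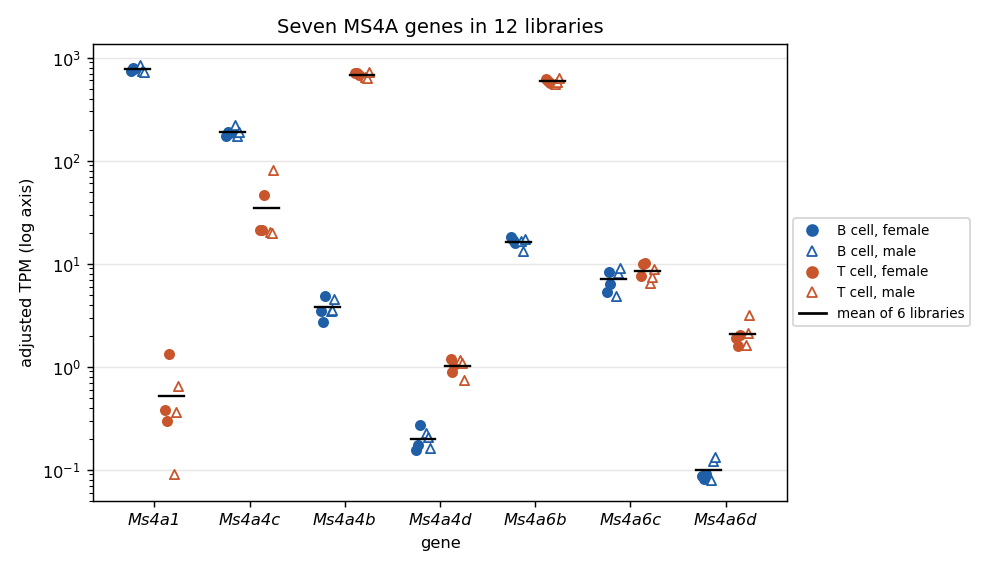
Level of each of the 7 genes in every library, in adjusted TPM on a log axis; filled circles are female and open triangles male libraries, blue for B and orange for T cells, and the black line is the mean of 6 libraries. Ms4a1 is at 732 or more in B cells, Ms4a4b is at 637 or more and Ms4a6b at 550 or more in T cells, and only Ms4a6c overlaps between the cell types.

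Ms4a1 (ENSMUSG00000024673.9) encodes CD20. In B cells its level was 738, 791 and 778 in the female libraries and 852, 735 and 732 in the male libraries. In T cells it was 0.382, 0.298 and 1.33 in the females and 0.0900, 0.365 and 0.643 in the males. Every B cell library was therefore far above every T cell library, and the lowest B value was 549.7 times the highest T value. The means were 771 ± 46.8 (SD, n = 6) and 0.518 ± 0.436 (SD, n = 6), a difference of 9.03 in log2(level + 1). Without both libraries numbered 6, the T cell values ran from 0.0900 to 0.382. Fewer cells of a type and less RNA per cell cannot be told apart in such bulk libraries.

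The traces of Ms4a1 in T cells were uneven. The female T cell library 6 held the highest Ms4a1 level, 1.33, and also the highest summed level of B cell markers, 4.34. The male T cell library 4 held the lowest of both, 0.0900 and 1.01. The part of these markers in the Ms4a1 values of T cells was not tested.

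The Ms4a4 genes differed from each other in direction. Ms4a4c (ENSMUSG00000024675.14) was at 175, 188 and 184 in female B cells and 224, 175 and 189 in male B cells. In T cells it was at 21.17, 21.02 and 46.55 in females and 20.1, 19.7 and 81.1 in males. All B cell libraries exceeded all T cell libraries, but within T cells the libraries numbered 6 were well above the rest. The B cell mean was 189 ± 18.2 (SD, n = 6) and the T cell mean 34.9 ± 24.9 (SD, n = 6), a difference of 2.63 in log2(level + 1) that became 3.14 without both libraries numbered 6.

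Ms4a4b (ENSMUSG00000056290.10), whose product is expressed on T cells and modulates their activation, showed the opposite order. It was at 706, 704 and 676 in female T cells and 652, 637 and 721 in male T cells. In B cells it was at 3.49, 2.74 and 4.82 in females and 3.51, 3.56 and 4.52 in males. Every T cell library was above every B cell library, by at least 132 times. The means were 683 ± 33.3 (SD, n = 6) and 3.77 ± 0.764 (SD, n = 6), a difference of -7.18 in log2(level + 1). Ms4a4c thus held 38.2 to 68.6 times the level of Ms4a4b in a B cell library and 0.0299 to 0.112 times its level in a T cell library. The T cell ratio was highest in the male library 6.

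Ms4a4d (ENSMUSG00000024678.6) was low in both cell types. Its level was 1.20, 0.881 and 1.05 in female T cells and 1.17, 1.10 and 0.748 in male T cells, and between 0.157 and 0.271 in the 6 B cell libraries. The cell types did not overlap, but the deposited bounds of a B cell value lay 2.99 to 10.1 times apart, so its level in B cells is poorly determined.

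Ms4a4c and Ms4a4b are neighbours on the same strand, separated by 16.3 kb of chromosome 19 (GENCODE M21 on GRCm38, Ms4a4c at 11404770 to 11427246 and Ms4a4b at 11443553 to 11467055). Their coding sequences were identical at 91.7% of 678 aligned bases, the closest pair among the 7 genes. Ms4a6c and Ms4a6b, the closest pair of the other subfamily, were identical at 86.4% of 641. The promoter windows of both pairs run from 250 bases before to 50 after the transcript start in RefSeq (GRCm38.p6). They are shown because the genes of each pair are alike in sequence and unlike in level. The windows of Ms4a4c and Ms4a6b lie inside the GENCODE extents of these genes, which begin at 11404770 and 11516512. Other annotated starts were not examined. Capitals mark matches to any of 6 short motifs that were searched on both strands, as described after the sequences. Positions are chr19:11407411-11407710 for Ms4a4c, chr19:11443308-11443607 for Ms4a4b, chr19:11469118-11469417 for Ms4a6c and chr19:11518309-11518608 for Ms4a6b, all on the plus strand and printed 5′ to 3′.
Ms4a4c: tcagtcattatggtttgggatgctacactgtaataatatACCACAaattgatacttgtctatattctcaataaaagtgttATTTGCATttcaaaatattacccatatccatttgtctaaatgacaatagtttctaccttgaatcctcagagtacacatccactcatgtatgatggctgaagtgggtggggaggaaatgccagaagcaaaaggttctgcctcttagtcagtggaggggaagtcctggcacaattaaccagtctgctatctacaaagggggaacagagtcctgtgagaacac
Ms4a4b: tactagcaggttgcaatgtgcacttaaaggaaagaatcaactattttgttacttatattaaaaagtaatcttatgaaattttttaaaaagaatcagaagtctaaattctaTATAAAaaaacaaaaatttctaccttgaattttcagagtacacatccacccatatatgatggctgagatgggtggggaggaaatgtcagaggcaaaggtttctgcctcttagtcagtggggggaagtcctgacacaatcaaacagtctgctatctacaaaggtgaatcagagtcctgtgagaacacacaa
Ms4a6c: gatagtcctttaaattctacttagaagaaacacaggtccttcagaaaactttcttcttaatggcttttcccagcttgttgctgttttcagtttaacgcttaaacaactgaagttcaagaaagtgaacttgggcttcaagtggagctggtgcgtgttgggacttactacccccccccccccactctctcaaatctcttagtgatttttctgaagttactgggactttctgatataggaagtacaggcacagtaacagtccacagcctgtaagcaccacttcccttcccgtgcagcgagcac
Ms4a6b: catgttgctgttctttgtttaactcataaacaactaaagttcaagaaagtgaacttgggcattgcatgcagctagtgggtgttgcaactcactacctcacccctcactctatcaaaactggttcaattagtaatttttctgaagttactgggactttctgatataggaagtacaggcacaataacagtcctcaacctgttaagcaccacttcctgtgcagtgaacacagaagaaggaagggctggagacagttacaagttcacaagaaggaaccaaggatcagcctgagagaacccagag

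The windows of Ms4a4c and Ms4a4b were identical at 81.9% of 281 aligned bases, and this likeness was uneven along them. From 125 bases before the start to the end of the window 89.7% of 174 aligned bases were identical, and farther upstream 69.2% of 107. For Ms4a6c and Ms4a6b the whole window gave 85.3% of 225 aligned bases, and the other pairs of the 5 genes with a window in RefSeq gave 59.8% to 66.8%. The windows of Ms4a1 and Ms4a6d were not analysed here.

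The motifs were the octamer ATGCAAAT, bound by POU factors; the TATA box TATAAA; the RUNX site TGTGGT; the TCF/LEF site CTTTGA; the core of the interferon-stimulated response element GAAANNGAAA; and the gamma-activated site TTCNNNGAA. The octamer matched in the Ms4a4c window, on the strand opposite to the gene at -170 to -163, and in 1.74% of all 32851 promoter windows. The Ms4a4c window also held the RUNX letters at -211 to -206, which occur in 16.8% of all windows. The Ms4a4b window held the TATA letters at -140 to -135, which occur in 13.6% of all windows. The Ms4a6c and Ms4a6b windows matched none of the 6 motifs, and the matches did not overlap each other. A match describes letters in the window and is not a binding site.

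Ms4a6b (ENSMUSG00000024677.8), known in T cells as a partner of costimulatory receptors, followed Ms4a4b. It was at 617, 590 and 561 in female T cells and 550, 574 and 633 in male T cells. In B cells it was at 18.1, 17.0 and 15.7 in females and 16.7, 13.3 and 17.4 in males. All T cell libraries exceeded all B cell libraries, by at least 30.3 times. The means were 588 ± 32.4 (SD, n = 6) and 16.4 ± 1.71 (SD, n = 6), a difference of -5.09 in log2(level + 1).

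In B cells Ms4a6b lay between 13.3 and 18.1 in the 6 libraries. Of the T cell markers, Cd4 lay between 0.00142 and 0.00594 and Cd3e between 0.0156 and 0.0790 in the same libraries, Cd3d between 0.191 and 0.263 and Tcf7 between 0.376 and 0.764, while Lck, a kinase of T cell receptor signalling, lay between 8.94 and 13.4. In T cells Cd4 lay between 179.6 and 203, Cd3e between 62.3 and 76.6, Cd3d between 166 and 216, Tcf7 between 342 and 388 and Lck between 260.4 and 325. The part of T cell transcripts in the Ms4a6b level of B cells was not tested.

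Ms4a6c (ENSMUSG00000079419.4) was the gene whose cell types overlapped. It was at 5.35, 8.35 and 6.31 in female B cells and 4.84, 8.12 and 9.16 in male B cells. In T cells it was at 7.54, 9.87 and 10.2 in females and 6.56, 7.39 and 8.88 in males. The ranges overlapped broadly. Its difference was -0.25 in log2(level + 1) and turned to 0.09 when every library was rescaled to a total of 1000000, a rescaling that moved the median of all 12520 genes from -0.09 to 0.25 and in which 1 gene, Yam1, took 2.03% to 37.4% of a library's total. Monocyte and macrophage markers (10 genes) summed to 18.3 to 26.9 in B cells and to 4.32 to 9.60 in T cells, with Cd14 and Fcgr1 under 0.1 in every library. Most of the B cell sum was Lyz2 and Ly6c2, at 6.82 to 11.1 and 3.22 to 10.7 there. Itgam did not follow the sum, at 1.03 to 1.47 in B cells and 0.916 to 1.71 in T cells. The part of these markers in the Ms4a6c level was not tested.

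Ms4a6d (ENSMUSG00000024679.5) was low and higher in T cells. It was at 1.90, 1.59 and 2.01 in female T cells and 1.63, 2.15 and 3.15 in male T cells, and between 0.0795 and 0.132 in B cells. The cell types did not overlap. The deposited bounds lay 1.46 to 1.95 times apart in T cells and 4.08 to 13.1 times apart in B cells.

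Close copies may share reads. Of the distinct 50-base stretches in annotated transcripts, 10.5% of those of Ms4a6c and 8.19% of those of Ms4a4c occur in transcripts of other genes, which for Ms4a4c are Ms4a4b and Ms4a4d. For the other 5 genes the share was 0.546% to 3.57%. For Ms4a6d it was 2.54%, with Ms4a6b among the genes that share stretches. How the authors assigned shared reads is not given in the sources used here, so low levels beside an abundant copy are uncertain. Among these are Ms4a4b in B cells, beside Ms4a4c, and Ms4a4c in T cells, beside Ms4a4b. In T cells the levels of Ms4a6c and Ms4a6d, beside abundant Ms4a6b, are likewise uncertain.

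In B cells the order of levels was Ms4a1, Ms4a4c, Ms4a6b, Ms4a6c, Ms4a4b, Ms4a4d and Ms4a6d, and no neighbours in this order had overlapping ranges. For Ms4a4d and Ms4a6d, however, the deposited bounds of single values were wider than the step between them. The smallest step was from Ms4a6c to Ms4a4b, with a ratio of means of 1.86. The lowest Ms4a6c value, 4.84, was barely above the highest Ms4a4b value, 4.82, and the deposited bounds of these 2 values overlapped. In T cells the order was Ms4a4b, Ms4a6b, Ms4a4c, Ms4a6c, Ms4a6d, Ms4a4d and Ms4a1. The step from Ms4a4b to Ms4a6b was small, 1.16, yet Ms4a4b was higher in 6 of 6 libraries. The ranges barely missed each other, with the lowest Ms4a4b value at 637 and the highest Ms4a6b value at 633, and the deposited bounds of these values overlapped. Over all 6 T cell libraries Ms4a4d and Ms4a1 overlapped and cannot be ordered beyond their spread. This overlap came from Ms4a1 at 1.33 in the female library 6. In the 4 libraries numbered 4 and 5 Ms4a4d, at 0.881 to 1.20, lay above Ms4a1, at 0.0900 to 0.382.

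Within the 7 genes, nearly all of the signal of a cell type belonged to a pair. Gm8369 is not part of this sum. In B cells Ms4a1 made up 78.1% ± 0.785 (SD, n = 6) and Ms4a4c 19.1% ± 0.777 (SD, n = 6) of the summed level of the 7 genes. In T cells Ms4a4b made up 51.9% ± 1.20 (SD, n = 6) and Ms4a6b 44.6% ± 1.11 (SD, n = 6). These shares are formed within a library, so a rescaling between libraries cannot change them. The summed level itself was 988 ± 62.6 (SD, n = 6) in the former and 1317 ± 80.4 (SD, n = 6) in the latter. The share of Ms4a4c in T cells was 1.56% to 1.63% in the 4 libraries numbered 4 and 5, 3.59% in the female library 6 and 5.60% in the male library 6, and its mean of 2.59% became 1.59% without the latter 2.

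**Figure D2:**
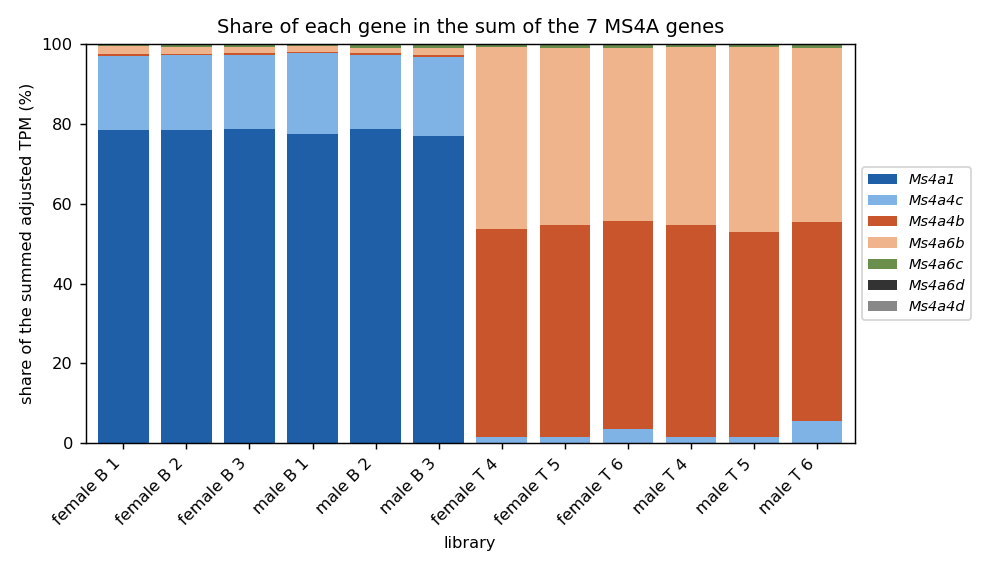
Share of each gene, in percent, in the summed adjusted TPM of the 7 genes, 1 bar per library. Ms4a1 and Ms4a4c fill the 6 B cell bars, Ms4a4b and Ms4a6b fill the 6 T cell bars, and the share of Ms4a4c is larger in the T cell libraries numbered 6 (3.59% and 5.60%) than in the other T cell libraries.

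The genes lie in a single stretch of chromosome 19 of GRCm38, from the left end of Ms4a1 at 11249675 to the right end of Ms4a6d at 11604849. Ms4a1 stands 138.5 kb from Ms4a4c, its nearest neighbour among the 7, and is transcribed on the minus strand, as is Ms4a6d. The other 5 genes are on the plus strand. Along this stretch the direction changed between Ms4a4c and Ms4a4b and did not turn back. Ms4a1 and Ms4a4c were higher in B cells, then came Ms4a4b with the reverse order, Ms4a6c, only 2.31 kb beyond Ms4a4b, overlapped between them, and Ms4a6b, Ms4a4d and Ms4a6d were higher in T cells.

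Between Ms4a6c and Ms4a6b lies Gm8369 (ENSMUSG00000058470.5), a coding gene named here after its values were seen. Its coding sequence was identical to that of Ms4a4c at 91.1% of 369 aligned bases. It was at 150, 158 and 122 in female B cells, 163, 134 and 150 in male B cells, 258, 271 and 181 in female T cells and 260, 284 and 197 in male T cells. The cell types did not overlap, and within T cells both libraries numbered 6 were the lowest. Of 12 genes flanking the cluster, 10 passed the filter on low values, and 2 of these were higher in B cells, another 2 in T cells, and 6 overlapped.

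**Figure D3:**
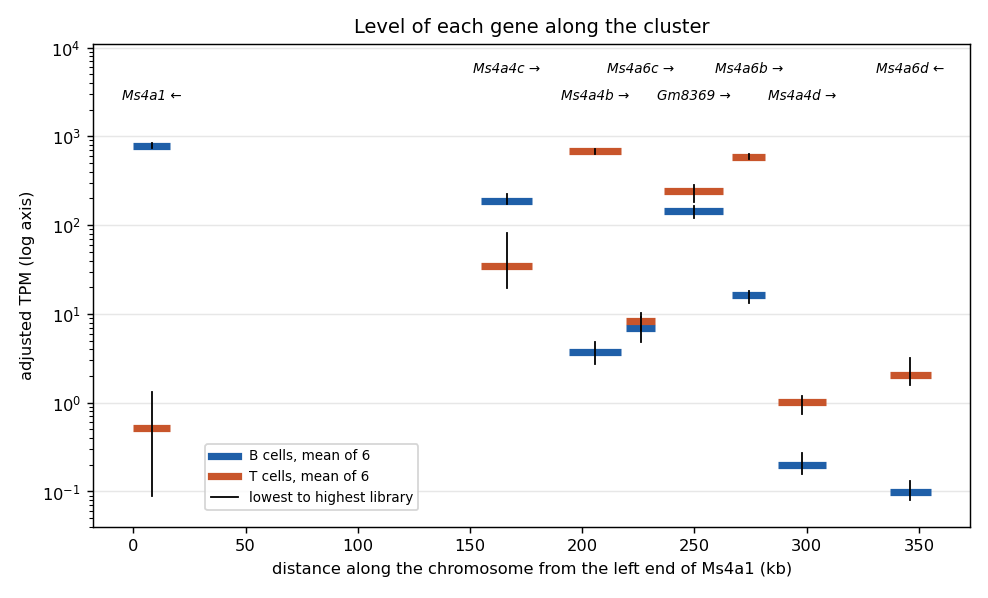
Mean adjusted TPM (log axis) of 6 B cell libraries (blue) and 6 T cell libraries (orange) for the 7 genes and Gm8369, each drawn over its extent in kb from the left end of Ms4a1; arrows give the strand and black lines run from the lowest to the highest library. The blue bar is on top at Ms4a1 and Ms4a4c, the bars nearly coincide at Ms4a6c, and the orange bar is on top at the other genes.

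Within cell types the abundant genes varied little. The SD of log2(level + 1) over the 6 libraries was 0.09 for Ms4a1 in B cells, and 0.07 for Ms4a4b and 0.08 for Ms4a6b in T cells, against a median over the 12520 genes of 0.12 in either cell type. Ms4a4c in T cells was the exception with an SD of 0.83, and only 0.807% of the 12520 genes had an SD as large in T cells.

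That spread came from the libraries numbered 6. The deposited bounds of Ms4a4c were 43.5 to 49.9 in the female library 6 and 75.5 to 88.0 in the male library 6, while no upper bound in the other 4 T cell libraries exceeded 23.5. The female value was 2.20 times and the male value 3.83 times the highest of the other 4. Both stayed above the other 4 under every scaling tried, at 2.44 and 2.34 times when each library was rescaled to a total of 1000000, and at 2.27 and 3.82 times with median-ratio scaling. Of the 12520 genes, 0.543% (68 genes) had both libraries numbered 6 at least 2-fold above the highest of the other 4.

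The abundant T cell members did not follow Ms4a4c in these libraries. Ms4a4b, at 676 and 721 in the libraries numbered 6, lay within or just above the 637 to 706 of the other 4. Ms4a6b, at 561 and 633, lay likewise beside 550 to 617. Ms4a6d was at 2.01 in the female and 3.15 in the male library 6, against 1.59 to 2.15 in the other 4, and Ms4a1 at 1.33 and 0.643 against 0.0900 to 0.382. Ms4a6c (10.2 and 8.88) and Ms4a4d (1.05 and 0.748) lay at most 1.04 times above the highest of the other 4.

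The protein-coding genes outside the family whose pattern over the 6 T cell libraries was closest to that of Ms4a4c were Ddit4, Plac8 and S100a4, by the root mean square distance of centred log2(level + 1) over 10391 genes (0.10, 0.20 and 0.21). This comparison was added after the Ms4a4c values were seen. Ddit4, an inhibitor of mTOR signalling induced by stress and glucocorticoids, was at 80.9 and 139 in the female and male libraries numbered 6 and at 34.9 to 41.3 in the other 4. S100a4, a calcium-binding protein known from memory and effector T cells, was at 2.77 and 3.54 against 0.201 to 0.496. Plac8, a small cysteine-rich protein, was at 1.64 and 3.70 against 0.142 to 0.641.

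Genes of regulatory and activated T cells stood higher in the same libraries. Il2ra, which encodes CD25, was at 4.999 and 4.115 against 0.158 to 0.340 in the other 4, although the sort selected CD25- cells. Foxp3, the regulator of regulatory T cells, was at 2.57 and 1.82 against 0.440 to 0.735, and Ctla4, an inhibitory receptor, at 13.2 and 11.4 against 1.57 to 2.15. Cd44 did not follow, at 9.86 and 5.89 against 7.36 to 10.7. The summed level of 10 monocyte and macrophage markers was 9.60 and 8.61 against 4.32 to 5.09, that of 5 dendritic cell markers 3.34 and 2.88 against 1.87 to 2.71, that of 4 B cell markers 4.34 and 2.25 against 1.01 to 1.94, and that of 13 interferon-stimulated genes 519 and 656 against 529 to 642. Of the monocyte and macrophage markers, Ly6c2 was at 2.19 and 4.66 against 1.46 to 1.96 and Lyz2 at 2.52 and 1.22 against 0.0335 to 0.873. Not all of them followed their sum, and Itgam was lower, at 1.21 and 0.916 against 1.48 to 1.71. Most of the dendritic cell sum was Zbtb46, at 2.59 and 2.32 against 1.72 to 2.39. Lower in both were the summed levels of 5 T cell markers, 1017 and 1052 against 1132 to 1194, and of 4 NK cell markers, 12.1 and 14.5 against 15.04 to 18.04. Most of the NK cell sum was Prf1, at 11.5 and 14.0 against 14.3 to 17.6, while Ncr1 and Klrb1c were under 0.1 in every T cell library. The part of any of these in the Ms4a4c values was not tested.

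**Figure D4:**
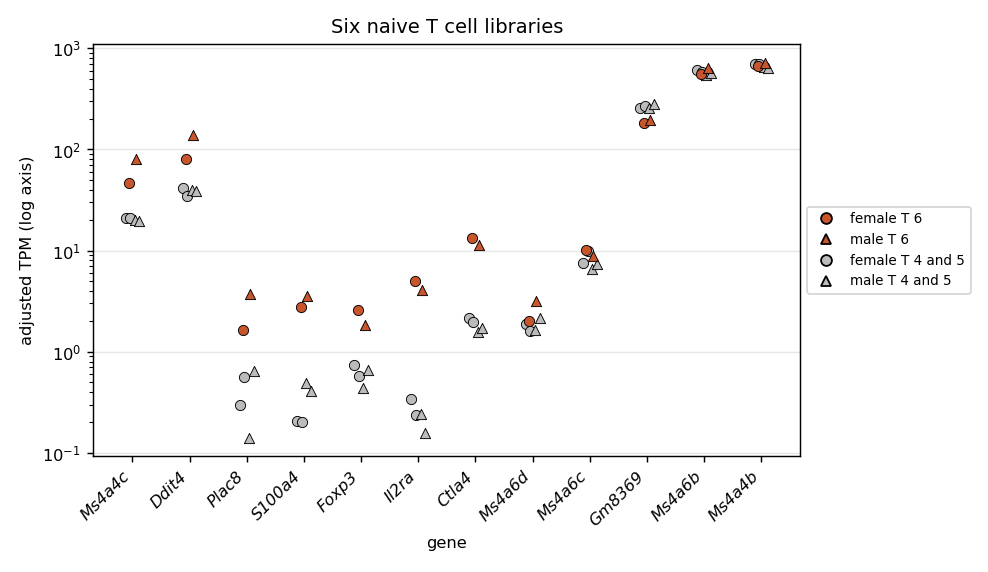
Adjusted TPM (log axis) of 12 genes in the 6 naive T cell libraries; orange marks the libraries numbered 6 and grey the other 4, with circles for females and triangles for males. Both orange points of Ms4a4c (46.5 and 81.1), Ddit4, Plac8, S100a4, Foxp3, Il2ra and Ctla4 lie above the grey ones, those of Gm8369 lie below, and those of Ms4a4b and Ms4a6b lie among or just above them.

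The same distance was taken over all 12 libraries for the 3 most abundant genes. Closest to Ms4a1 were Cd79b, a signalling chain of the B cell receptor, Ly6d, a surface protein of the B lineage, and Faim3, the receptor for IgM, at distances of 0.08, 0.27 and 0.32. Cd79b averaged 973 ± 88.7 (SD, n = 6) over the B cell libraries and 0.837 ± 0.627 (SD, n = 6) over the T cell libraries. Near to Ms4a4b were Il7r, the interleukin 7 receptor, and Prkcq, a kinase of T cell receptor signalling, at 0.16 and 0.17. Closest to Ms4a6b were Ubash3a, a regulator of T cell receptor signalling, Apol7e, and Txk, a kinase of T cells, at 0.13, 0.14 and 0.15. The 12 points behind each distance fall into B and T libraries, so the distances mostly reflect the size of the difference between cell types.

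Apart from Gm8369, which carries no family name in the table but resembles the Ms4a4 genes in sequence, the remaining family members were mostly near 0. Of 16 further genes, counting every other gene named Ms4a, 2 that RefSeq assigns to the family and the related Tmem176a and Tmem176b, 12 were under 0.1 in every library, among them Ms4a2, the beta chain of the IgE receptor of mast cells. Tmem176a and Tmem176b, relatives of the family known from dendritic cells, were the only 2 to pass the filter, at 0.906 to 1.59 and 0.956 to 1.93 in B cells and 0.275 to 0.558 and 0.297 to 0.685 in T cells. Their B and T cell libraries did not overlap. Ms4a7, known from macrophages, was at 0.254 to 0.459 in B cells and under 0.001 in T cells. Ms4a4a was at 0.148 to 0.308 in B cells and 0.0752 to 0.325 in T cells, which overlap.

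Females and males were compared next, a contrast that the choice of genes did not use. The deposited column names carry a further digit that differs between females and males within each cell type. Its meaning is not given in the sources used here, and it cannot be told apart from sex in any of the sex contrasts. None of the 7 genes passed the threshold of an adjusted p under 0.05 in either cell type in limma with Benjamini-Hochberg adjustment over all 12520 genes, where 0.144% of genes (18) passed in B cells and 0.104% (13) in T cells. None of the 7 had an unadjusted p under 0.05 in either contrast, which 373 of all genes had in B cells and 319 in T cells. Female and male libraries overlapped for all 7 genes in both cell types. Among T cell libraries of equal number, which pair the sexes there, Ms4a6c was higher in the female in 3 of 3 pairs. The other 6 genes did not keep 1 order. The shares of all genes that overlap between the sexes or keep 1 order in the pairs are not given here. Nothing is therefore read from either count. With the number as a block the difference of Ms4a6c in T cells was 0.24 in log2(level + 1) (95% interval -0.03 to 0.52), with an adjusted p of 1.00 in limma. That of Ms4a1, which is low in T cells, was 0.26 (-0.01 to 0.53) in the same fit. The T cell intervals of all 7 genes included 0 there. The smallest adjusted p among the 7 was 1.00 in each contrast.

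The widths of the intervals differed between genes, here in the fit without the block. Female minus male in log2(level + 1) was -0.00 (95% interval -0.43 to 0.42) for Ms4a1 in B cells, 0.05 (-0.24 to 0.35) for Ms4a4b in T cells and 0.01 (-0.21 to 0.23) for Ms4a6b in T cells. The 7 differences ran from -0.11 to 0.10 in B cells and from -0.21 to 0.26 in T cells. Their medians were -0.03 and 0.03, beside -0.01 and -0.00 over all genes.

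Ms4a4c had the widest interval, because the libraries numbered 6 entered the estimate of spread shared by all groups. Its difference was -0.10 (-1.06 to 0.86) in B cells and -0.21 (-1.17 to 0.75) in T cells. With the number as a block, which pairs the T cell libraries, the interval in T cells was -0.61 to 0.19. With the B cell libraries alone the interval in B cells was -0.34 to 0.15. Without both libraries numbered 6 the difference in T cells was 0.08 (-0.16 to 0.32). The direction in T cells thus rested on these libraries, and a difference between the sexes was not detectable.

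The difference between the sex contrasts of the cell types did not pass the threshold for any of the 7 genes, and limma with the same adjustment called 0 of the 12520 genes (0%), while 295 had an unadjusted p under 0.05. Among the 7 genes the difference of contrasts ran from -0.35 for Ms4a6c to 0.17 for Ms4a6d. Neither the 10 flanking genes, the 2 Tmem176 genes nor Gm8369 passed the threshold in any of the 3 sex contrasts.

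**Figure D5:**
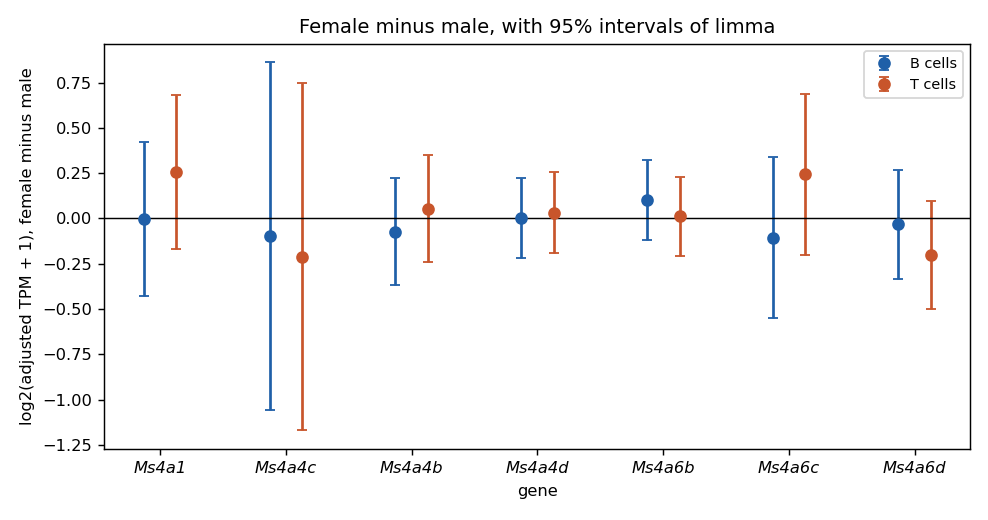
Female minus male in log2(adjusted TPM + 1) for each of the 7 genes, in B cells (blue) and T cells (orange); points are limma estimates from 3 female and 3 male libraries and bars are 95% intervals. All 14 intervals include 0, and those of Ms4a4c are the widest. The fit does not use the pairing of T cell libraries by number.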

How the data were processed

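RNA was sequenced from 12 libraries of 4 groups, assigned from the sample labels. Some label fields name genomic DNA, while the protocol describes RNA sequencing. Per gene and library, the authors deposited a signal named adjusted TPM, as a point estimate with a lower and an upper bound. The submitters' processing notes name Trim Galore, FastQC, STAR and mm10. The quantification tool, the adjustment and the level of the bounds are not given in the sources used here. Values are not counts, so the depth is unknown and the bounds served as the measure of precision. The authors' rescaling differs between libraries, which affects differences between libraries but not shares within 1 library. No value column was left unused, and no pair of libraries held identical values.

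Genes that reached a value of 1 in 3 or more libraries entered the test with limma 3.58.1 in R 4.3.3 on log2(value + 1) with a mean-variance trend, 1 coefficient per group over all 12 libraries and Benjamini-Hochberg adjustment; fold changes on this scale understate those of low genes. The fit was tested on simulated data. The members and lists were chosen with earlier results of these data known. B and T cells were compared without a test. Alternatives were another pseudocount, no filter, other scalings, the deposited bounds, fits within a cell type or sex, left-out libraries and a replicate block. P-values measure the spread between pools of mice.

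Of the 41128 gene identifiers, 40254 matched GENCODE M21 on GRCm38, from which positions, coding sequences and transcripts came; promoter windows came from RefSeq (GRCm38.p6), which held 5 of the 7 genes. Named genes were the 7 members, other family genes, flanking genes where a result turned on them, and the 3 protein-coding genes nearest in pattern to Ms4a1, Ms4a4b and Ms4a6b. The 13 interferon-stimulated genes, Gm8369 and the genes nearest to Ms4a4c were added after its values were seen. Older symbols were matched through the annotation. A gene of the marker lists and a gene near in pattern to Ms4a4b are not reported here.

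Whether equal library numbers pair the sexes was checked with the correlation over 12520 genes of deviations from the group means. It was 0.72, 0.55 and 0.52 for the equal numbers in T cells and -0.17, -0.04 and -0.34 in B cells, so by a limit of 0.1 the numbers pair the T cell libraries and not the B cell libraries. Other computations used Python 3.11.15, pandas 2.3.3 and numpy 2.4.6.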

Additional observations from a re-analysis of the deposited data

Results flagged for a closer look

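Among the 6 libraries of a cell type, Dixon's test at 95% singled out 2 values of the 7 genes; chance alone singles out about 1 group in 20. Ms4a4c was highest in male B cell library 1, at 223.9 against 174.7 to 189 in the other 5, and its gap to the next value was 0.702 of the range (critical value 0.625). Ms4a1 was also highest in that library, at 852. Ms4a4c made up 20.3% of the summed level of the 7 genes there, against 18.6% to 19.9% in the other B cell libraries. Ms4a6d was highest in male T cell library 6, at 3.15 against 1.59 to 2.15 in the other 5, with a gap of 0.642 of the range.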

How the results depend on the processing

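None of the 7 genes passed the threshold in a sex contrast under any of the 385 refits of a member. Their adjusted p in limma was 0.42 or more. Under each of 20 alternatives 6 of the 7 did not overlap between B and T cells. In the main setting 53.9% of the 12520 genes did not. Leaving out libraries or changing the pseudocount cannot create an overlap. Only the other scalings and the deposited bounds could have done so. With the replicate block, which pairs libraries of equal number, 14 genes were called in B cells, 10 in T cells and 0 for the difference of contrasts, and no member's call changed. Leaving out 1 library gave 12 to 18 calls in B cells, 9 to 14 in T cells and 0 to 3 for the difference, with 3 only without female T cell library 6. Without both T cell libraries numbered 6, an alternative added after the data were seen, the difference gave 3 calls. Rescaling to a total of 1000000 gave 44, 26 and 20 calls. A pseudocount of 0.1 gave 24 in T cells and 1 for the difference, and fitting B cells alone gave 5; the cause was not tested. Without the filter 10985, 10607 and 11201 genes were called, of which 10820, 10463 and 11075 lay below the filter. The B minus T difference of Ms4a1 ran from 8.87 to 10.6 in log2, that of Ms4a4b from -7.49 to -6.87, that of Ms4a6b from -5.19 to -4.73, that of Ms4a4d from -1.91 to -0.63 and that of Ms4a6d from -3.42 to -1.30, with the low ends of the last 2 at a pseudocount of 0.1. Values under 0.3 have wide deposited bounds, which limits Ms4a4d and Ms4a6d in B cells.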
